A study of Mus musculus with 12 samples.

Results

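The genes described here encode the machinery that fuses membranes by SNARE complexes, together with its calcium sensors and regulators: the syntaxins, the vesicle-associated membrane proteins (VAMPs), the SNAP-25 family, the synaptotagmins and the proteins named for binding syntaxin. They were chosen by gene symbol alone, as symbols that start with Stx or Vamp and a digit, with Stxbp, or with Syt followed by a digit or l, plus Snap followed only by digits, without pseudogenes. The rule found 49 of the 28643 symbols in the deposited table. These were 13 syntaxins, 7 VAMPs, 3 members of the SNAP-25 family (Snap23, Snap29 and Snap47), 3 Sec1/Munc18 proteins, 4 other syntaxin-binding proteins (Stxbp4, Stxbp5, Stxbp5l and Stxbp6), 13 synaptotagmins and 5 synaptotagmin-like proteins. The last, Snap91, is the clathrin adaptor AP180, which shares only its name with the SNAP-25 family and was kept apart. Snap25, Stx11, Syt2, Syt8, Syt13, Syt15 and Vamp9 were not analysed here.

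A SNARE complex is a bundle of helices, in which an R-SNARE, usually a VAMP on the vesicle, zips together with Q-SNAREs, a syntaxin and SNAP-25-like helices, on the target membrane. Sec1/Munc18 proteins clasp the syntaxin and template the assembly, synaptotagmins make fusion respond to calcium in regulated secretion, and Nsf with the SNAP adaptors (Napa and its relatives, unrelated to SNAP-25) pulls used complexes apart. Round spermatids build the acrosome, a large secretory granule assembled from Golgi-derived and endosomal vesicles, which a mature sperm releases by SNARE-dependent exocytosis at the egg.

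The study compared spermatids of 8-week-old male mice heterozygous (Igf2bp3+/-, the control) or homozygous (Igf2bp3-/-) for a Cas9-made frameshift in Igf2bp3, an RNA-binding protein of male germ cells, so both groups carried the mutant allele. Cells were flow-sorted in cycloheximide, which freezes ribosomes on mRNA, and Igf2bp3-/- males with impaired fertility were the ones used. Total input RNA was sequenced as RNA-seq, and mRNAs carrying 4 or more ribosomes, taken from a sucrose gradient, as RNC-seq (ribosome nascent-chain complex sequencing). Each mouse's extract gave both an input and a polysome sample, but the sources used here do not say that the replicate numbers name these pairs. With 3 libraries for each genotype in each assay the series held 12, which the submitters call biological replicates. Values are FPKM, a read density scaled by transcript length and by the mapped reads of the library. Polysome loading is the log2 difference RNC-seq minus RNA-seq within a genotype, and the difference in loading between genotypes is called translational efficiency (TE) difference. A change was called at an adjusted p under 0.05 in limma, with Benjamini-Hochberg adjustment over all genes tested.

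Igf2bp3 itself was listed at 38.2, 38.6 and 33.4 FPKM in Igf2bp3+/- RNA-seq and at 31.7, 32.5 and 31.4 in Igf2bp3-/- RNA-seq, so the mRNA stayed present, and gene-level FPKM does not show a frameshift. The 8 round spermatid markers summed to 1146 to 1275 FPKM in Igf2bp3+/- and 1319 to 1520 in Igf2bp3-/- RNA-seq. Markers of Leydig cells, the steroid-producing cells between the tubules, summed to 15.4 to 22.6 FPKM in Igf2bp3+/- and 48.6 to 55.0 in Igf2bp3-/- RNA-seq, and to 6.75 to 14.3 and 51.5 to 103 in RNC-seq, with 7 of 7 markers higher in the knockout in both assays. Sertoli cell markers summed to 3.49 to 4.49 FPKM against 7.26 to 7.88 in RNA-seq, and macrophage markers to 7.88 to 9.52 against 13.4 to 14.6. Of the Sertoli markers, 3 of 5 tested were higher in knockout RNA-seq, and only Clu was called. Clu averaged 3.12 FPKM in Igf2bp3+/- and 6.69 in Igf2bp3-/- RNA-seq, while Gata1 went from 0.256 to 0.143 and Rhox5 from 0.203 to 0.130. The part of these other cells in any genotype difference below was not tested. Igf2bp3-/- RNA-seq replicate 1 was the deepest library by an estimate from low FPKM values, and the other libraries had 0.366 to 0.555 of its depth. The noncoding transcript CT010467.1 took 15.9% to 19.4% of the summed FPKM in Igf2bp3+/- RNC-seq and 8.14% to 14.6% in Igf2bp3-/- RNC-seq.

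The sequences that matter most for what follows are those of the synaptobrevin-type R-SNAREs, since Vamp1, Vamp2 and Vamp3 are close relatives whose mRNAs were found on polysomes to very different extents. Over their aligned coding sequences Vamp1 and Vamp2 were 77.2% identical, Vamp2 and Vamp3 75.8%, and Vamp1 and Vamp3 72%. The stretch below lies within the SNARE motif, the helix that enters the complex. It covers codons 41 to 60 of Vamp1, 39 to 58 of Vamp2 and 26 to 45 of Vamp3, from the GENCODE M21 transcripts, 5′ to 3′. Capitals mark the bases at which the 3 genes are not all the same.
Vamp1: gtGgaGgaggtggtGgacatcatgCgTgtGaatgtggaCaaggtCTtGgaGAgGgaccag
Vamp2: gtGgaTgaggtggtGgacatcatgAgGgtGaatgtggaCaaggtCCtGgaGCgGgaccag
Vamp3: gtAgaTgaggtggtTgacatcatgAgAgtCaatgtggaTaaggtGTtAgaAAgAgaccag
Vamp1 and Vamp2 differed at 5 of these 60 bases, and each differed from Vamp3 at 11. None of the 3 had a near-identical copy among the annotated transcripts (a match of 95% or more in sequence across 50% or more of the transcript). On GRCm38, Vamp1 lies on the plus strand at chr6:125215551-125245964, Vamp2 at chr11:69088490-69092384 and Vamp3, on the minus strand, at chr4:151047300-151057963.

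In control total RNA the highest members were Stxbp2, syntaxins of the plasma membrane, autophagosome, endoplasmic reticulum and Golgi, and Syt11, while several genes known from neuronal exocytosis (Stx1a, Syt1, Syt7 and Syt9 among them) were close to 0. The mean FPKM over the Igf2bp3+/- RNA-seq libraries was at least 10 for 7 members, from 1 to 10 for 13, from 0.1 to 1 for 16 and under 0.1 for 13. At least 1 FPKM was reached by 40.8% of the members and 43.2% of all symbols, and at least 10 FPKM by 14.3% and 18.5%. Summed over members, FPKM ranged from 229 to 235 in Igf2bp3+/- RNA-seq and from 247 to 263 in Igf2bp3-/- RNA-seq. Over all symbols the sum ranged from 459762 to 479787 and from 475891 to 509397, so the member sums are not on a common total. By class, the syntaxins summed to 102 FPKM in control total RNA, the Sec1/Munc18 proteins to 38.2, the synaptotagmins to 32.0, the VAMPs to 31.4, the SNAP-25 family to 23.0, the other syntaxin-binding proteins to 3.51 and the synaptotagmin-like proteins, which tether vesicles through Rab27, to 1.70.

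**Figure D1:**
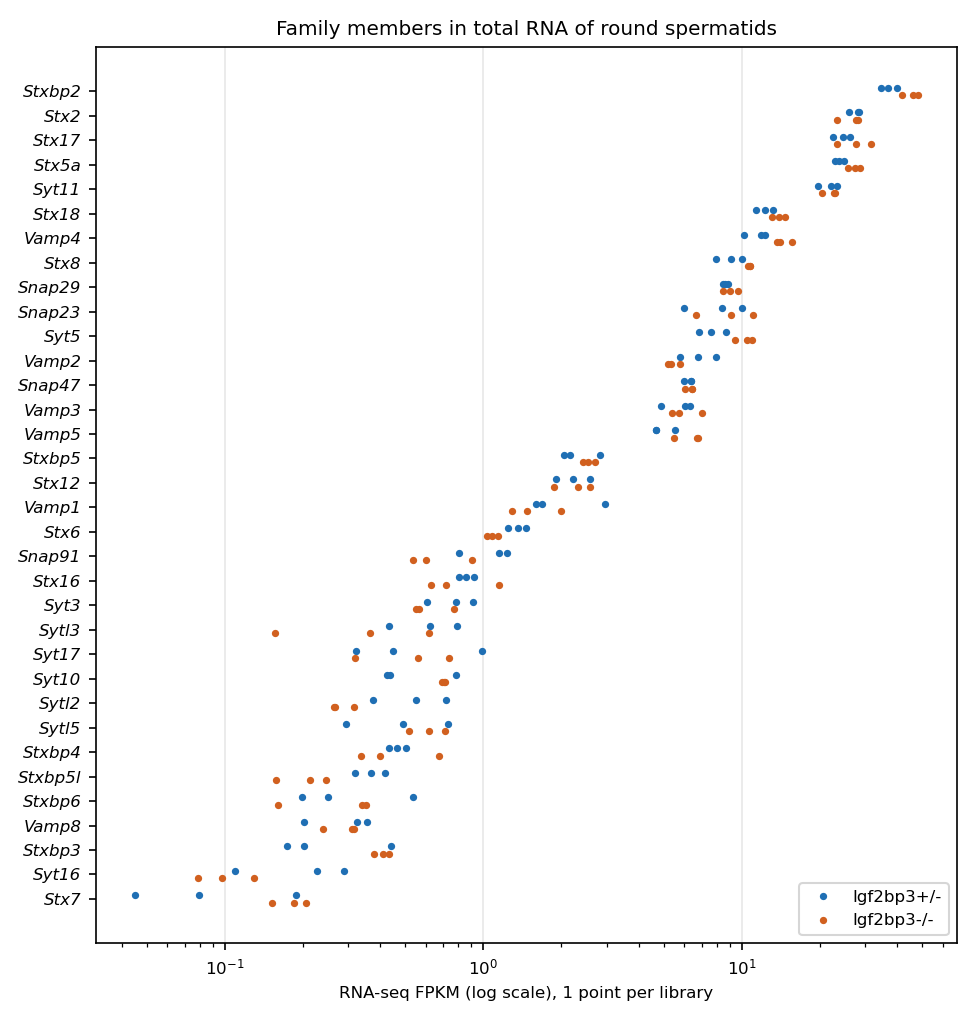
RNA-seq FPKM on a log scale for 34 members tested in total RNA, with 1 point per library (3 Igf2bp3+/- in blue, 3 Igf2bp3-/- in orange), ordered by the Igf2bp3+/- mean. The order runs from Stxbp2 at 34.7 to 48.0 FPKM down to Stx7 at 0.045 to 0.206, and for most members the points of the genotypes overlap.

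Among the Q-SNAREs, 3 syntaxins of different membranes led. Stx2, a plasma membrane syntaxin needed for normal spermatogenesis in mice, was listed at 28.0, 28.5 and 26.0 FPKM in control RNA-seq. Stx17, the syntaxin of autophagosomes, stood at 26.1, 22.5 and 24.7 FPKM, and Stx5a, which acts between endoplasmic reticulum and Golgi, at 23.0, 24.8 and 23.8. The ranges of Stx17 and Stx5a overlapped each other, and Stx2 overlapped Stx17 by its lowest library, so these neighbours were not separated beyond their spread. Stx18, a syntaxin of the endoplasmic reticulum, followed at 13.2, 11.3 and 12.3 FPKM, but 32.3% of its exonic bases overlap genes on the opposite strand, and the sources do not say if the quantification used strand. Stx8, of late endosomes, stood at 9.09, 10.0 and 7.92 FPKM. Stx12, of recycling endosomes, averaged 2.24 FPKM, and Stx6, of the trans-Golgi network, 1.36. At the other end, Stx1a, the synaptic syntaxin, was listed at 0.0651, 0.0535 and 0 FPKM, and at 0 in all 6 RNC-seq libraries. Stx3, Stx4a and Stx19 also averaged under 0.1 FPKM. All 3 members of the SNAP-25 family exceeded 1 FPKM: Snap29 averaged 8.66, Snap23 8.12 and Snap47 6.25 (SD 0.194, 2.03 and 0.215, n = 3).

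The R-SNAREs were led by Vamp4, of the trans-Golgi network, at 12.3, 11.8 and 10.2 FPKM in control total RNA. Vamp2 (synaptobrevin 2) stood at 7.96, 5.76 and 6.77 FPKM, Vamp3 (cellubrevin, of recycling endosomes) at 6.01, 6.33 and 4.88, and Vamp5 (myobrevin) at 4.67, 5.50 and 4.67. Vamp2 and Vamp3 overlapped, as did Vamp3 and Vamp5. Vamp1 (synaptobrevin 1) was lower, at 2.96, 1.69 and 1.60 FPKM, and Vamp8, an R-SNARE of endosomes and autophagosomes, averaged 0.294. Vamp7, which the annotation places on an unplaced scaffold while a Vamp7 pseudogene is on chromosome 2, averaged 0.0366 FPKM.

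The most abundant member of all was Stxbp2 (Munc18-2), the Sec1/Munc18 protein known from secretory granules of blood and epithelial cells, at 34.7, 36.7 and 39.8 FPKM in control total RNA. Its lowest library lay above the highest of Stx2, the next member. Stxbp3 (Munc18c) averaged 0.272 FPKM. Of the tomosyns, which hold SNAREs inactive, Stxbp5 averaged 2.35 FPKM and Stxbp5l 0.368.

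The synaptotagmins were 2 abundant genes and a long tail. Syt11, which lacks the calcium-binding residues of the classical members, was listed at 19.8, 22.1 and 23.4 FPKM, and Syt5, a calcium-binding vesicle synaptotagmin, at 6.82, 8.66 and 7.58. The other 11 averaged under 1 FPKM. The calcium sensors of fast neurotransmission and dense-core granule release, Syt1, Syt7 and Syt9, averaged 0.109, 0.0513 and 0.0870 FPKM, and Syt6, known from the acrosome reaction, 0.0354. Syt4 was listed at 1.91 FPKM in Igf2bp3+/- RNC-seq replicate 1 and 0.0451 in Igf2bp3-/- RNA-seq replicate 3, and at 0 in the other 10 libraries. Of the 5 synaptotagmin-like genes none reached 1 FPKM, and Sytl3 shares 53.2% of its longest transcript with the near-identical copy Gm29719, so its value is uncertain.

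The promoters of the highest and one of the lowest members are shown because a half-site of the cyclic AMP response element, a motif bound by the CREM factor of round spermatids, occurs in both, and the full element in neither. RefSeq promoters on GRCm38.p6, which run from upstream of the start into the first exon, were matched for 39 of the 49 members, and capitals mark the half-site TGACG or its reverse complement.
Stxbp2, chr8:3630859-3631158, plus strand: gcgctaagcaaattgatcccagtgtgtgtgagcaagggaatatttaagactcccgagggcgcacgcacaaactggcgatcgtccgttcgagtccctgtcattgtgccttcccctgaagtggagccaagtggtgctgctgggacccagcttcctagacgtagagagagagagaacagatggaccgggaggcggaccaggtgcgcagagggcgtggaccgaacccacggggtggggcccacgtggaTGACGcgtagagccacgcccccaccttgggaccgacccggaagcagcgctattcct
Stx1a, chr5:135023232-135023531, plus strand: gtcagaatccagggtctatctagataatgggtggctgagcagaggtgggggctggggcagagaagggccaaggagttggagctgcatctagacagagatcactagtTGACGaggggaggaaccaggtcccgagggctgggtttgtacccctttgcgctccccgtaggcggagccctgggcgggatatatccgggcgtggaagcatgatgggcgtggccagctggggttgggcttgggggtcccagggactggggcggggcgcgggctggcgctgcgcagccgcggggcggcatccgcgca
Stxbp2 averaged 37.1 FPKM in control total RNA and Stx1a 0.0395. TGACG, searched on both strands, was found in 11 of 47 member promoters (23.4%) and in 20.8% of all 32841 promoters of the same length, in 6 of 20 promoters of members at 1 FPKM or more and in 2 of 11 of members under 0.1. The full element TGACGTCA, which contains the half-site on both strands, was in 1 of 47 member promoters (that of Stxbp3) and in 1.79% of all. The 47 member promoters had a median of 61.3% G and C and 19 CpG dinucleotides, against 52.7% and 7 over all promoters.

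The question asked of total RNA was whether the mRNA level of any of these genes differed between genotypes. No member passed the test: 0 of 35 members tested were called, where 0.256% of all 20352 genes tested were. At an unadjusted p under 0.05, 4 members were higher and 3 lower in Igf2bp3-/- (11.4% and 8.57%, against 10.4% and 5.32% of all genes tested). Without overlap between the genotypes were 5 members higher (14.3%, against 14.1% of all genes) and 3 lower (8.57%, against 8.68%). The median log2 change was 0.02 over the members and 0.05 over all genes tested. In bulk samples, fewer cells of a type and less RNA per cell cannot be told apart.

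The member nearest to the limit with higher values in the knockout was Syt5. Its FPKM was 6.82, 8.66 and 7.58 in Igf2bp3+/- and 10.5, 11.0 and 9.45 in Igf2bp3-/- RNA-seq. All 3 knockout libraries lay above all 3 controls, and the log2 difference was 0.42 ± 0.12 (SE, adjusted p = 0.20). Vamp4 went from 12.3, 11.8 and 10.2 FPKM to 13.7, 14.1 and 15.6, a log2 difference of 0.34 ± 0.11 (adjusted p = 0.23), and its libraries did not overlap either. Stxbp2 was listed at 41.8, 48.0 and 46.0 FPKM in the knockout, each above the control libraries given earlier, a log2 difference of 0.29 ± 0.10 (adjusted p = 0.23).

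The 3 members lower at an unadjusted p under 0.05 were Sytl2, Snap91 and Stxbp5l. Their log2 differences were -0.73, -0.59 and -0.62 (adjusted p = 0.27, 0.31 and 0.31). They averaged 0.548, 1.07 and 0.368 FPKM in control RNA-seq. Among members averaging 1 FPKM or more over the 12 libraries, the smallest p-values on the lower side were those of Vamp2, Vamp1 and Stx2. Vamp2 was listed at 5.30, 5.78 and 5.20 FPKM in Igf2bp3-/- RNA-seq against 7.96, 5.76 and 6.77 in the control, a log2 difference of -0.32 ± 0.14 (adjusted p = 0.32), and the groups overlapped by 1 library. Vamp1 gave 1.99, 1.29 and 1.47 FPKM against 2.96, 1.69 and 1.60, with overlap, a log2 difference of -0.34 ± 0.26 (adjusted p = 0.55). Stx2 gave 28.0, 27.7 and 23.3 FPKM, a log2 difference of -0.07 ± 0.10 (adjusted p = 0.79), whose sign turned to 0.02 without Igf2bp3-/- replicate 3. Among the other abundant members, Stx17 read 23.4, 27.5 and 31.6 FPKM, Stx5a 25.7, 27.3 and 28.7, Syt11 23.0, 22.7 and 20.5, Stx18 14.0, 13.1 and 14.7 and Stx8 10.6, 10.7 and 10.8 in the knockout, and none of the 5 passed the test.

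**Figure D2:**
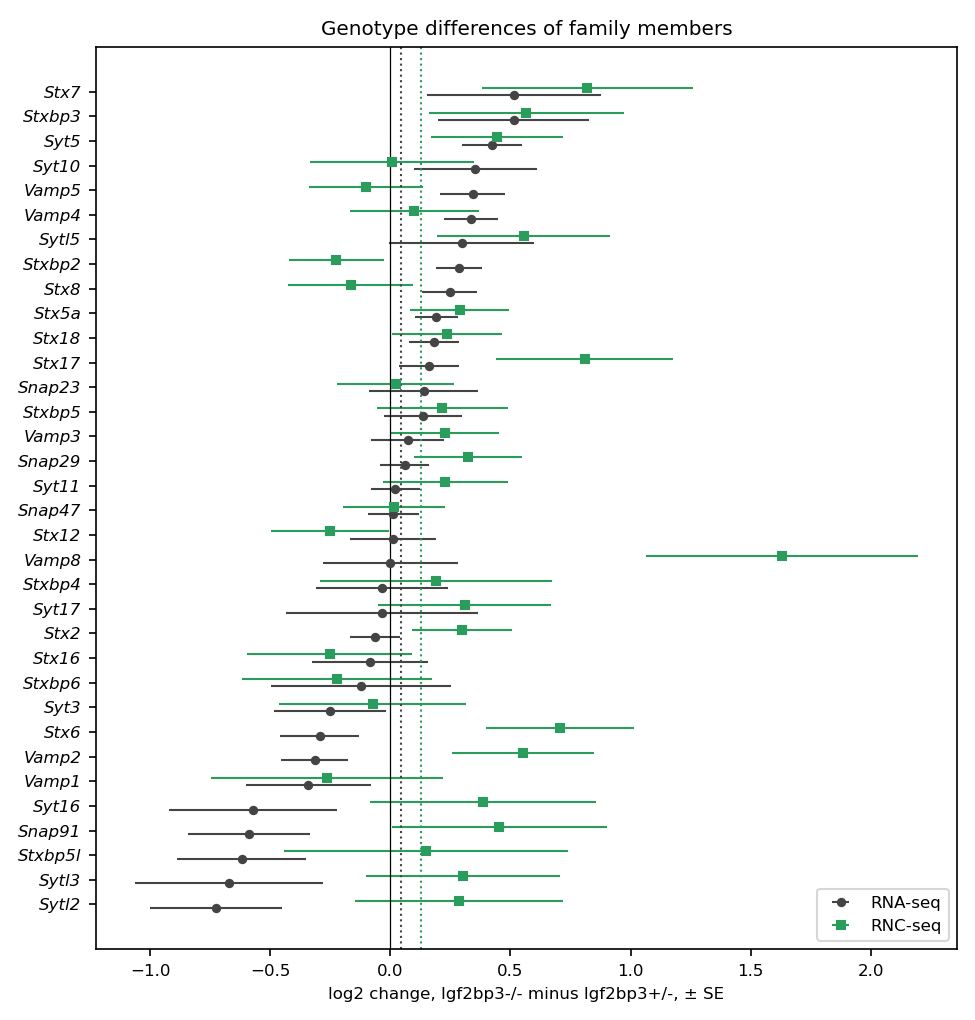
Log2 change, Igf2bp3-/- minus Igf2bp3+/-, with SE, in RNA-seq (grey circles) and RNC-seq (green squares) for 34 members tested in both assays. Dotted lines are the medians over all genes tested, 0.05 in RNA-seq and 0.13 in RNC-seq, and no member passed an adjusted p of 0.05. The Vamp8 value rests on control libraries listed at 0.

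On polysomes, again no member differed between genotypes past the limit: 0 of 36 members tested were called, against 0.115% of 19051 genes. At an unadjusted p under 0.05, 3 members were higher and 0 lower (8.33% and 0%, against 5.36% and 1.12% of all genes tested). Without overlap between the genotypes were 5 members higher and 2 lower (13.9% and 5.56%, against 9.44% and 1.85% of all genes tested). The median log2 change in RNC-seq was 0.23 over the members and 0.13 over all genes, and 75% of the members had a positive sign against 65.3% of all genes. With each library centred on its median, the median over all genes was 0.01 and that over members 0.11.

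Stx17 showed the largest difference among members averaging 1 FPKM or more over the 12 libraries, with uneven knockout replicates. Its RNC-seq FPKM was 12.4, 14.8 and 14.4 in Igf2bp3+/- and 47.5, 22.8 and 13.2 in Igf2bp3-/-. Igf2bp3-/- replicates 1 and 2 lay above the control range and replicate 3 inside it, and the log2 difference was 0.81 ± 0.37 (adjusted p = 0.77). Vamp2 was listed at 3.20, 5.20 and 2.91 FPKM against 7.17, 5.30 and 4.13, overlapping, with a log2 difference of 0.55 ± 0.30 (adjusted p = 0.80). Syt5 was listed at 15.4, 14.6 and 13.3 FPKM against 13.3, 29.4 and 19.3, a log2 difference of 0.44 ± 0.28 (adjusted p = 0.82), and 1 knockout library lay at the lowest control value.

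Of the members tested in RNC-seq, 9 had lower values in the knockout, and at a mean of 1 FPKM or more over the 12 libraries the smallest p-values among them were those of Stxbp2, Stx12 and Stx8. Stxbp2 gave 42.3, 44.5 and 49.1 FPKM in Igf2bp3+/- and 40.8, 42.2 and 33.6 in Igf2bp3-/-, without overlap, a log2 difference of -0.23 ± 0.20 (adjusted p = 0.85). Stx12 gave 2.74, 2.29 and 2.83 FPKM against 2.08, 2.21 and 2.24, also without overlap, a log2 difference of -0.25 ± 0.24 (adjusted p = 0.87). Stx8 gave 13.6, 8.35 and 9.86 FPKM against 10.9, 7.004 and 10.4, with overlap, a log2 difference of -0.17 ± 0.26 (adjusted p = 0.93) that turned to 0.03 without Igf2bp3+/- replicate 1 or without Igf2bp3-/- replicate 2. None of these differences passed the test.

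Whether loading itself differed between genotypes was tested as the TE difference, and 0 of 35 members were called, against 0.00543% of 18414 genes. At an unadjusted p under 0.05, 3 members had a higher and 1 a lower TE in the knockout (8.57% and 2.86%, against 5.54% and 1.58% of all genes tested). The median was 0.18 over members and 0.06 over all genes tested. Among members averaging 1 FPKM or more over the 12 libraries, the smallest p-values on the higher side belonged to Vamp2 (log2 TE difference 0.87 ± 0.34, adjusted p = 0.69), Stx2 (0.36 ± 0.21, adjusted p = 0.72) and Stx17 (0.65 ± 0.45, adjusted p = 0.75). The Stx17 value was 0.05 without Igf2bp3-/- replicate 1 and 1.19 without Igf2bp3-/- replicate 3. On the lower side they belonged to Stxbp2 (-0.51 ± 0.19, adjusted p = 0.69), Vamp5 (-0.45 ± 0.26, adjusted p = 0.72) and Stx8 (-0.41 ± 0.29, adjusted p = 0.75). For Stx2, RNC-seq FPKM was 23.6, 22.6 and 23.8 in the control and 23.7, 33.0 and 30.3 in the knockout, so 2 knockout libraries stood above the control range and 1 inside it. For Vamp5, RNA-seq FPKM averaged 4.95 in the control and 6.31 in the knockout, while RNC-seq FPKM was 8.83, 6.47 and 8.20 against 8.49, 5.97 and 7.43, and neither difference passed the test.

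Stx6 and Vamp8, picked after their values were seen, averaged under 1 FPKM over the 12 libraries. Stx6, which had the smallest p of all members tested for TE, was listed at 1.24, 1.46 and 1.36 FPKM in Igf2bp3+/- and 1.04, 1.14 and 1.08 in Igf2bp3-/- RNA-seq, and at 0.433, 0.536 and 0.605 against 0.954, 0.967 and 0.823 in RNC-seq. The genotypes did not overlap in either assay, in opposite directions, and the log2 TE difference was 1.00 ± 0.29 (adjusted p = 0.69). Vamp8 was listed at 0, 0 and 0.165 FPKM in control RNC-seq and 0.132, 0.399 and 0.579 in knockout RNC-seq, and because the control is mostly listed at 0 no fold is given.

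Within the control, members differed widely in how far their mRNAs were found with 4 or more ribosomes. Of 35 members tested, 13 were called for polysome loading (37.1%, against 43.6% of 19798 genes), 3 higher on polysomes (8.57%, against 17.3%) and 10 lower (28.6%, against 26.3%). FPKM is relative within a library, so a positive loading means a larger share of the polysome RNA than of total RNA, not a count of ribosomes. The median loading was -0.16 over members and -0.14 over all genes. With each library centred on its median, the median over all genes was 0.04 and the 13 members called were 6 higher and 7 lower, with Snap23, Stxbp2 and Vamp4 added on the higher side, and of all genes called 4848 were higher and 4109 lower, against 3431 and 5205 without centring. The balance of higher and lower calls therefore depends on the scaling.

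**Figure D3:**
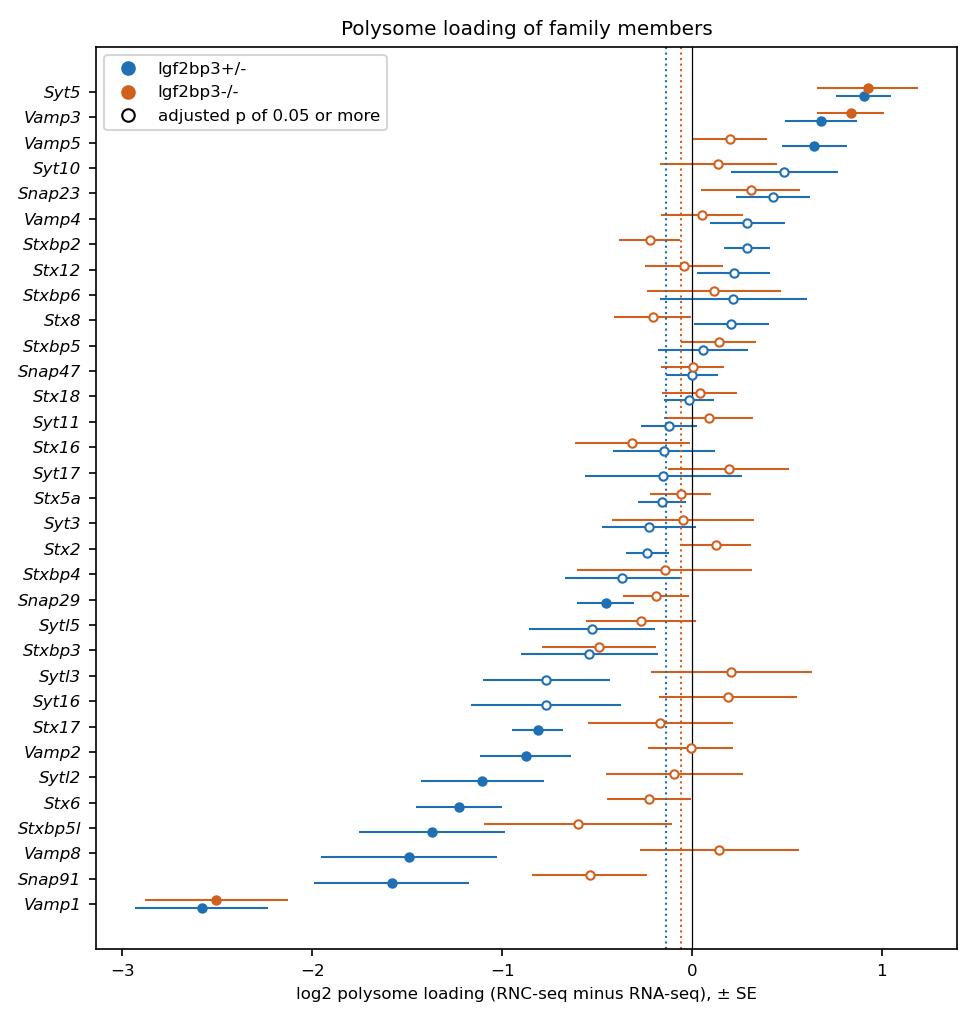
Log2 polysome loading (RNC-seq minus RNA-seq) with SE for 33 members tested for it in both genotypes, ordered by the Igf2bp3+/- value (blue, Igf2bp3+/-, and orange, Igf2bp3-/-). Filled points passed an adjusted p of 0.05, dotted lines are the medians over all genes, and Syt5 with Vamp3 at the top and Vamp1 at the bottom are filled in both genotypes.

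The 3 members enriched on polysomes were Syt5, Vamp3 and Vamp5. Syt5 rose from 6.82, 8.66 and 7.58 FPKM in total RNA to 15.4, 14.6 and 13.3 on polysomes, with all 3 polysome libraries above all input libraries, a log2 loading of 0.90 ± 0.15 (adjusted p = 0.0016). Vamp3 rose from 6.01, 6.33 and 4.88 FPKM to 11.3, 7.62 and 9.03, likewise without overlap, a loading of 0.68 ± 0.19 (adjusted p = 0.019). Vamp5 rose from 4.67, 5.50 and 4.67 FPKM to 8.83, 6.47 and 8.20, without overlap, a loading of 0.64 ± 0.17 (adjusted p = 0.015). The Syt5 call held with each control replicate left out, whereas those of Vamp3 and Vamp5 were lost without replicate 1 (adjusted p = 0.11 and 0.13) and without replicate 3 (adjusted p = 0.13 and 0.12).

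Vamp1 was the most depleted member on polysomes. Its FPKM fell from 2.96, 1.69 and 1.60 in total RNA to 0.431, 0.202 and 0.171, with every polysome library below every input library, a log2 loading of -2.58 ± 0.35 (adjusted p = 0.00072). The call held under each alternative that tested the gene, but the size did not. The loading ranged from -2.61 to -1.26 over the alternatives, and from -2.61 to -2.55 with a replicate left out. Vamp2, its closest relative, fell from 7.96, 5.76 and 6.77 FPKM to 3.20, 5.20 and 2.91, a loading of -0.88 ± 0.24 (adjusted p = 0.018). Its groups did not overlap either, but replicate 2 lay close to the lowest input library, and the call was lost with each library centred on its median (adjusted p = 0.057), without replicate 1 (adjusted p = 0.16) and without replicate 3 (adjusted p = 0.14). So of the 3 relatives whose sequences are printed above, Vamp1 and Vamp2 were lower on polysomes and Vamp3 was higher in the control.

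**Figure D4:**
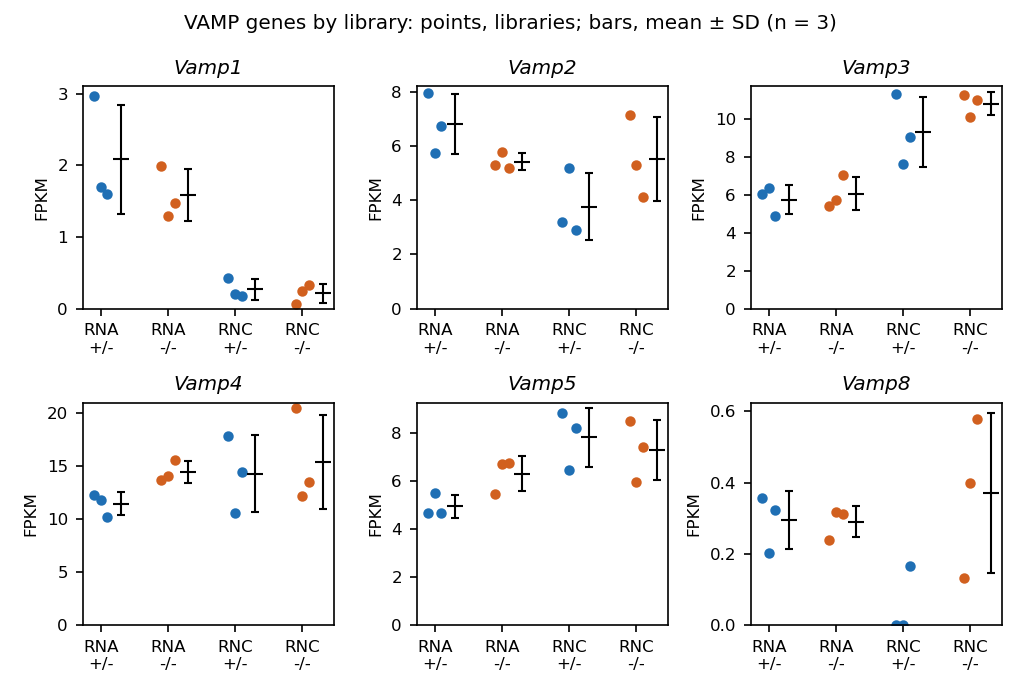
FPKM of 6 VAMP genes in each library, on linear axes from 0 (blue, Igf2bp3+/-, and orange, Igf2bp3-/-), with RNA-seq on the left and RNC-seq on the right of each panel. Bars give the mean ± SD (n = 3), left out where a library is listed at 0. Vamp1 falls below 0.5 FPKM in all 6 RNC-seq libraries while Vamp3 is higher in RNC-seq than in RNA-seq in both genotypes.

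A set of SNAREs known to act together, Stx17, Snap29 and Vamp8, which fuse autophagosomes with lysosomes, was lower on control polysomes for each gene, a grouping made after the values were seen. Stx17 fell from 26.1, 22.5 and 24.7 FPKM to 12.4, 14.8 and 14.4, without overlap, a loading of -0.81 ± 0.13 (adjusted p = 0.0017) that stayed past an adjusted p of 0.05 in each refit. Snap29 fell from 8.61, 8.87 and 8.49 FPKM to 6.61, 5.43 and 6.92, without overlap, a loading of -0.45 ± 0.15 (adjusted p = 0.036). The Snap29 call was lost with median centring, with quantile normalization, without any 1 of the control replicates and with the replicate number as a block, which takes equal numbers of both assays as pairs (adjusted p from 0.054 to 0.17 over these fits). Vamp8 passed the test (adjusted p = 0.030), but with 2 of 3 polysome libraries listed at 0 its loading is no measure of size, and the call was lost with quantile normalization (adjusted p = 0.083) and without replicate 1 (adjusted p = 0.19) or 2 (adjusted p = 0.10).

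Other depleted members were genes of low level. Stx6 fell from a mean of 1.36 ± 0.11 FPKM (SD, n = 3) in total RNA to 0.525 ± 0.087 on polysomes, a loading of -1.23 ± 0.23 (adjusted p = 0.0030). This call held with each control replicate left out. Snap91 had a loading of -1.58 ± 0.41 (adjusted p = 0.014), Stxbp5l -1.37 ± 0.38 (adjusted p = 0.020) and Sytl2, a Rab27 effector, -1.10 ± 0.32 (adjusted p = 0.024). The last 3 lost their calls without replicate 2 or 3, and Stxbp5l and Sytl2 also without replicate 1 (adjusted p from 0.052 to 0.11 over these fits). The Sytl2 call was also lost with median centring (adjusted p = 0.058) and quantile normalization (adjusted p = 0.11), and the Stxbp5l call with quantile normalization (adjusted p = 0.071).

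Most abundant members did not pass the test. Stxbp2 (loading 0.29 ± 0.12, adjusted p = 0.083), Stx2 (-0.24 ± 0.11, adjusted p = 0.13), Stx5a (-0.16 ± 0.13, adjusted p = 0.35), Syt11 (-0.12 ± 0.15, adjusted p = 0.53) and Vamp4 (0.29 ± 0.20, adjusted p = 0.26) were not called, although Stxbp2 (0.46, adjusted p = 0.028) and Vamp4 (0.47, adjusted p = 0.037) were with median centring. In RNC-seq of the control, Stx5a read 21.4, 19.2 and 23.7 FPKM, Syt11 20.3, 17.2 and 22.8, Stx18 12.6, 11.6 and 12.3 and Vamp4 17.8, 10.6 and 14.5. In the SNAP-25 family Snap47 was even, with mean FPKM of 6.25 in total RNA and 6.25 on polysomes of the control (loading -0.00016 ± 0.14). Across the 35 members tested, control loading had a Spearman rho of -0.27 with the longest coding length and of 0.26 with the RNA level, given as descriptions over genes that share libraries.

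In the knockout the same contrast called fewer members, and also fewer genes in the whole table. Of 35 members tested, 4 passed (11.4%, against 20.5% of 19858 genes), 2 higher (5.71%, against 9.48%) and 2 lower (5.71%, against 11%). Syt5 rose from 10.5, 11.0 and 9.45 FPKM in total RNA to 13.3, 29.4 and 19.3 on polysomes (loading 0.92 ± 0.26, adjusted p = 0.037), and Vamp3 from 5.39, 5.69 and 7.03 to 11.3, 10.1 and 11.0 (loading 0.84 ± 0.18, adjusted p = 0.013). Vamp1 fell from 1.99, 1.29 and 1.47 FPKM to 0.0684, 0.252 and 0.323 (loading -2.50 ± 0.38, adjusted p = 0.0043). None of these 3 overlapped between assays, and all 4 calls were made in the control in the same direction. All 4 calls were lost without Igf2bp3-/- replicate 1 or 3, fits in which 4 and 6 of all genes tested were called. That of Syt5 was also lost without replicate 2 (adjusted p = 0.085) and with quantile normalization (adjusted p = 0.051).

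For the members called in the control alone, the knockout values were nearer to 0, which choosing members by that call favours in itself. No TE difference passed the test, so loss of the call does not show that loading differed. Stx17 had a knockout loading of -0.17 ± 0.38 (adjusted p = 0.79), Vamp2 of -0.01 ± 0.22 (adjusted p = 0.99), Stx6 of -0.23 ± 0.22 (adjusted p = 0.50), Snap29 of -0.19 ± 0.17 (adjusted p = 0.46) and Vamp5 of 0.20 ± 0.20 (adjusted p = 0.51). Signs of Stx17, Vamp2 and Vamp5 turned when single knockout replicates were left out. Over the members tested in both genotypes, Pearson's r of the 2 loadings was 0.76, a description over genes measured in the same libraries.

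The rest of the SNARE machinery was read from a list of 37 partner genes, of which 31 were in the table. The 3 most abundant were Use1, an endoplasmic reticulum Q-SNARE that pairs with Stx18, at 64.9, 68.9 and 55.2 FPKM in control total RNA, Napa (alpha-SNAP, the disassembly adaptor) at 48.8, 54.5 and 51.6, and Gosr2, a Golgi Q-SNARE, at 27.7, 28.9 and 26.7. Use1 and Napa thus lay above every member of the family in the control. Between genotypes 0 of 29 partners tested were called in RNA-seq, 0 of 26 in RNC-seq and 0 of 26 for TE.

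In control polysome loading, 6 of 28 partners tested were higher (21.4%, against 17.3% of all genes tested) and 5 lower (17.9%, against 26.3%), named here after their values were seen. Those higher were the Q-SNAREs Bet1, Gosr1, Use1 and Bnip1, the Sec22 family member Sec22a, and the complexin Cplx4, which sits at 0.660 FPKM. Use1 had a loading of 0.85 ± 0.13 (adjusted p = 0.0011) and Bet1 of 1.17 (adjusted p = 0.0031). Those lower were the Sec22 family member Sec22c, the R-SNARE Ykt6, Nsf, the ATPase that recycles SNAREs, and Unc13b and Doc2a, which act in exocytosis. Doc2a averaged 0.213 FPKM in control RNA-seq and was listed at 0.0982, 0 and 0 in control RNC-seq, so its loading is no measure of size. In the knockout 3 of 29 were higher (Bet1, Use1 and Sec22a, 10.3% against 9.48%) and 1 lower (Unc13d, 3.45% against 11%). Unc13d was listed at 0.0074, 0.040 and 0 FPKM in knockout RNC-seq, so its loading is no measure of size either. The median loading of the list was -0.25 in the control and -0.03 in the knockout, against -0.14 and -0.06 over all genes tested.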

How the data were processed

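Round spermatids of 2 genotypes were profiled by RNA-seq and RNC-seq in 12 libraries. The authors deposited 1 table of FPKM per gene symbol. Their processing notes and methods name Trim Galore 0.6.6, HISAT2, GRCm38 and StringTie 2.1.7; the annotation release and strand use are not given in the sources used here. The labels name directional poly(A) libraries, the methods a full-length protocol. Columns headed WT are the Igf2bp3+/- libraries by the labels. Of 28668 symbols, 25 turned into dates were left out (0.0995% of summed FPKM).

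Values were analysed as log2(FPKM + 0.1), which understates changes of low genes, with limma 3.58.1 in R 4.3.3 (intensity trend, two-sided). Genes with a mean FPKM above 0.1 were tested, for TE in both assays. FPKM holds no counts, so no count model or counting interval was used. Relative depth came from the commonest low value of FPKM times length over single-transcript genes. The fits were tested on simulated data. Positions, overlaps and copies came from GENCODE M21 and BLAST 2.17.0.

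Members, gene lists, tests and alternatives were chosen with earlier results of these data known. Values by library were to be given for members past the limit between genotypes (there were 0) and the 8 highest in control RNA-seq. The same held for the 3 smallest p per direction at a mean of at least 1 FPKM over the 12 libraries. It also held for the largest loadings in each direction. For some of these members only part of the 12 libraries is printed. Other members are mostly given by group mean or counts, and partner genes were to be named only as the 3 highest. A member that enters the counts is not reported here by name. No batch is named in the labels. P-values set a group difference against the spread between these libraries.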

Additional observations from a re-analysis of the deposited data

How the results depend on the processing

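The counts of members called between genotypes stayed at 0 under every alternative run but one. By the limit of an unadjusted p under 0.05 with an absolute log2 change over 1.5, 1 member was called in RNC-seq and 1 for TE, Vamp8 in both, whose control polysome libraries are mostly listed at 0. For control loading, 13 calls became 7 of 18 members tested (3 higher, 4 lower) among genes with a mean FPKM above 1. They became 3 (all lower) by the unadjusted limit and 6 to 8 with a replicate left out. In the latter fits 5251 to 6918 of all genes were called, against 8636 in the main fit. Over all alternatives the member calls ranged from 3 to 14 and the calls over all genes from 2203 to 8957. The fit at a mean above 1 has fewer members tested, and the unadjusted limit is itself stricter in size. For knockout loading, 4 calls became 2 of 18 members tested, both higher, with a mean above 1. They became 1 by the unadjusted limit and 0 to 3 with a replicate left out. In the latter fits 4 to 3984 of all genes were called, against 4068 in the main fit.

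Of 482 refits of single members, 432 kept direction and side of the limit, 38 lost the call and 12 turned in sign. Turned signs, all of values that missed the limit, were with a replicate left out Stx2 in RNA-seq (range -0.112 to 0.0197) and Stx8 in RNC-seq (-0.321 to 0.0312), and, for knockout loading, Vamp2 with median centring (0.0547), quantile normalization (0.0288) and a replicate left out (-0.22 to 0.15), Sytl2 with quantile normalization (0.11) and a replicate left out (-0.29 to 0.29), Vamp5 (-0.015 to 0.38), Stx17 (-0.76 to 0.38) and Vamp8 (-0.14 to 0.49) with a replicate left out. The cause was not tested. In control loading, Stx17, Syt5, Vamp1 and Stx6 stayed past an adjusted p of 0.05 in each refit that tested them, while Stx17, Syt5 and Stx6 are under the size limit of 1.5.

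Same-numbered libraries of the 2 assays deviated together with correlations from -0.104 to 0.205, and those of the genotypes from -0.083 to 0.241, so the values do not settle whether equal numbers mark one extract. With the replicate number as a block, 0 members were called between genotypes in RNA-seq, RNC-seq and TE, 12 in control loading (Snap29 lost, adjusted p = 0.059) and 4 in knockout loading. Over all genes, RNA-seq calls (52) came to 4 with the block, 31 with no filter, 158 by the unadjusted limit and 9 to 38 with a replicate left out. RNC-seq calls (22, 15 of them higher) came to 2 with no filter, 13 with centring (6 higher), 12 with quantile normalization (5 higher), 188 by the unadjusted limit and as few as 0 without Igf2bp3-/- replicate 1. TE calls (1) ranged from 0 to 196. Loading calls over all genes (8636 in the control, 4068 in the knockout) came to 2203 and 806 by the unadjusted limit and, with a replicate left out, to as few as 5251 and 4. FPKM carries no counts, so what depth hides in members near 0 cannot be bounded.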

Other observations

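The remaining marker lists gave these summed FPKM. Elongating spermatid markers summed to 8107 to 10475 in Igf2bp3+/- and 9110 to 9273 in Igf2bp3-/- RNA-seq, and to 11324 to 13930 and 10085 to 20886 in RNC-seq. Spermatocyte markers summed to 92.5 to 113 and 105 to 131 in RNA-seq, spermatogonia markers to 6.83 to 10.1 and 7.24 to 9.23, and peritubular and endothelial markers to 1.60 to 1.91 and 4.43 to 5.51. Of these lists, the peritubular and endothelial list had 1 marker, Dcn, called higher in the knockout in RNA-seq. The other 3 lists had 0 called. Dcn averaged 0.871 FPKM in Igf2bp3+/- and 3.88 in Igf2bp3-/- RNA-seq. Acta2 averaged 0.606 and 0.677, Myh11 0.221 and 0.161 and Pecam1 0.105 and 0.082, so Dcn made up most of the difference in the sum.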
